A study of Mus musculus with 17 samples.

Results

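High-CpG promoters that kept nucleosome-sized fragments over the start site in embryonic stem (ES) cells, and lost nearly all of them in a standard digest of sperm, formed a set of 565 promoters. They were 565 of the 10262 high-CpG promoters with enough signal to be judged (5.51%), out of 10576 high-CpG promoters in all. Each was chosen by a start-site ratio, the mean signal within 200 bp of the start site over the mean 1000 to 2000 bp away on both sides. A promoter entered the set with a ratio of 0.60 or more in ES cells, a ratio of 0.20 or less in standard sperm, and a flank sum of 220 or more, about 10 fragments, in both libraries. The coverage difference between those libraries is therefore the choice itself and is described below without a test.

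The ES cell library was the supernatant of an MNase digest of E14 cells, a 129 X Ola line grown on gelatin without feeders in serum and LIF. The standard sperm library was the supernatant of swim-up sperm of 10-week-old C57/B6J mice, taken from the cauda epididymis and vas deferens and fixed with formaldehyde. A titration of such sperm gave 12 more libraries in 3 series, unspun sperm with 0.5, 2, 10 and 50 units of MNase and supernatants and pellets with 1, 5, 20 and 100 units each. Every group was 1 library, so no value has a replicate. Cell type cannot be told apart from strain, from fixation or from the much smaller amount of enzyme per cell in the standard sperm digest. Coverage holds no expression level, so the identity of the cells was not checked against marker genes.

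Micrococcal nuclease (MNase) digests DNA that no protein holds, and the fragments that survive mark packaged DNA. Most mammalian housekeeping genes and many developmental regulators start in CpG-rich promoters, where active genes commonly carry a nucleosome-poor stretch between positioned nucleosomes. In late spermatids most histones give way to protamines, which pack the DNA more tightly, and a small part of the genome keeps nucleosomes.

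The set held 557 separate places, since 8 pairs of start sites lay 53 to 159 bp apart and shared their windows. One of these pairs, Cdc123 and Nudt5, carried the most ES cell signal of all members. The 4 promoters below are shown because they belong to the first 6 members by ES cell start-site signal that had an entry in the RefSeq table and because that entry was the gene's only one. Each is the 250 bases before the RefSeq start in GRCm38.p6, with every CpG in capitals. The deposited start sites are in mm9, and no coordinate was converted. In mm9 the Cdc123 start (5766006) lies below that of Nudt5 (5766079), but the windows printed here place it above. The Cdc123 and Nudt5 windows thus do not both precede the measured starts. For Tssk2 and Pecr, whether both annotations name the same start was not tested.

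Cdc123, chr2:5845178-5845427, minus strand: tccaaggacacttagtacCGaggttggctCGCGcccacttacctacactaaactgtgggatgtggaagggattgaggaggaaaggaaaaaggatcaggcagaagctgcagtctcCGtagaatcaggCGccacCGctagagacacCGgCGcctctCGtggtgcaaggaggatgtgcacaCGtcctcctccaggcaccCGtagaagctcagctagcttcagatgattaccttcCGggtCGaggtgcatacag
Nudt5, chr2:5844784-5845033, plus strand: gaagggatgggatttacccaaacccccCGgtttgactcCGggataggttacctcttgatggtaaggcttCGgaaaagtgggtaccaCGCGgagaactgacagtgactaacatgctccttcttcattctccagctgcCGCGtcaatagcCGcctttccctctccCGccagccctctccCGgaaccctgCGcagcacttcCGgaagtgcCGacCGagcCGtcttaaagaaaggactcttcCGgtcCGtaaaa
Tssk2, chr16:17898387-17898636, plus strand: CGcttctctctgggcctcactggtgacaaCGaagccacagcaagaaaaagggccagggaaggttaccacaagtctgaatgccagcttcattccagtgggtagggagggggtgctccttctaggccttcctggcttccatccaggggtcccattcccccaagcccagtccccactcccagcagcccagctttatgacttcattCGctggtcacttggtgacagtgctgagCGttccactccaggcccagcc
Pecr, chr1:72284322-72284571, minus strand: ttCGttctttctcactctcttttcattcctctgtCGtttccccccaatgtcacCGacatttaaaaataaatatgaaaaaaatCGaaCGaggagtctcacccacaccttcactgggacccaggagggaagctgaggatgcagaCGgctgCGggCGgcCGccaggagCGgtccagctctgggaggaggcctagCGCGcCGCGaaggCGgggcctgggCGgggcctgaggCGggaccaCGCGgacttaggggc

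The windows held 13 CpGs for Cdc123, 17 for Nudt5, 4 for Tssk2 and 19 for Pecr, beside a median of 6 over all 32851 promoters of the table. The 4 windows thus spanned CpG-poor and CpG-rich stretches, for genes whose deposited promoters all carry the authors' high-CpG class. On either strand, the ETS core CCGGAAG stood in the Cdc123 and Nudt5 windows and in 6.91% of the table's promoters. The E2F core TCCCGCC stood in the Nudt5 and Pecr windows and in 9.75% of the table's promoters. The GC box GGGCGG, whose letters can overlap an E2F core, stood in the Pecr window and in 32.7% of promoters, and CCAAT stood in the Pecr window and in 33.8%. TATAAA stood in none of the 4 windows and in 12.4% of promoters. These matches are descriptions of letters. A comparison of base composition over the whole set is void, because the table gave an entry to only 445 of the 565 promoters (78.8%) and to 79.1% of all 10262, both under the 80% set as a minimum.

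At the chosen promoters the ES cell ratio had a median of 0.816 (range 0.601 to 2.64), and the standard sperm ratio had a median of 0.0902 (range 0 to 0.2). Over all 10262 promoters the medians were 0.231 in ES cells and 0.160 in standard sperm. In fragment equivalents (the pileup divided by the 22 that an isolated fragment adds), a member held a median of 6.05 at the start site in ES cells and 0.5 in standard sperm. Even coverage would have given a mean of 7.29 in ES cells and 6.17 in standard sperm, against means of 6.40 in ES cells and 0.566 in standard sperm. Start sites of the set thus held nearly as much as their flanks in ES cells and were almost empty in standard sperm. The standard sperm signal was exactly 0 at 118 members and below 1 fragment at 443. The ES cell ratio was below 1 at 414 members, 1 or more at the remaining 26.7%, and 2 or more at 13 members.

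**Figure D1:**
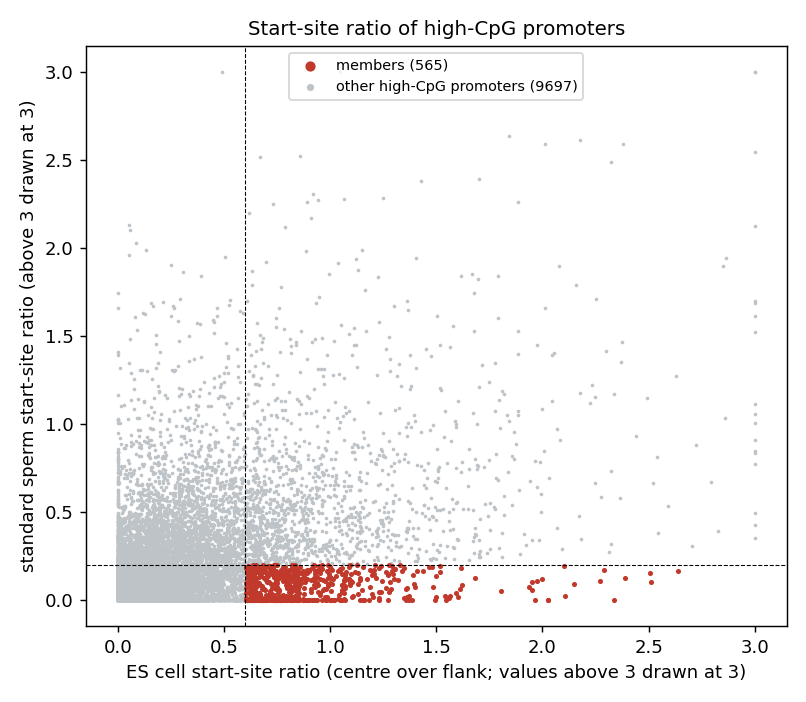
Start-site ratio of each high-CpG promoter in ES cells (x axis) against standard sperm (y axis), with ratios above 3 drawn at 3 and dashed lines at 0.60 and 0.20. The 565 chosen promoters (red) are the lower right corner, which the thresholds cut out of a continuous cloud of 9697 other promoters (grey).

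The set has no natural edge. Of all 10262 promoters, 18.8% had an ES cell ratio of 0.60 or more and 56.5% had a standard sperm ratio of 0.20 or less. The members nearest the ES cell limit were Kcnj10, Zbtb22, Rhcg, Trappc2, Zfp711 and Sgta at 0.601 to 0.605, and among the nearest promoters left out were Fgf12, Rsph9, Cabin1, Rabep2 and Zkscan17 at 0.598 to 0.599. At the sperm limit, Kcnk4, Rbpjl, Mesp1, Sema5a, Bcar3 and Klhl7 stood inside at 0.198 to 0.2. Nefl, Snrnp200, Nxf2, Utp14a, Arl2 and Psmc3 stood just outside at 0.201 to 0.205. These ratios are well within each other's counting error. The 95% exact binomial interval of the ES cell ratio lay wholly above that of the standard sperm ratio at 18 of 565 members (3.19%), against 0.253% of all 10262 promoters, and the choice itself favours such promoters. Single members were thus seldom separated by counting error. Summed over members, the ratio was 0.877 in ES cells (95% interval 0.847 to 0.909) and 0.0918 in standard sperm (0.0819 to 0.103), a gap that the limits of 0.60 and 0.20 fix.

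The mean profile of the members in ES cells dipped shallowly at the start site and again downstream of the window. Within 200 bp of the start site it was highest 190 bp upstream, at 1.16 times the flank, and lowest 10 bp upstream, at 0.732. The standard sperm profile fell to 0.0472 at 10 bp downstream and reached 0.240 at 190 bp upstream. Beyond the window the members' pooled ES cell ratio was 1.13 for 200 to 1000 bp upstream and 0.852 for the same stretch downstream, against 0.791 upstream and 0.525 downstream in standard sperm. Other high-CpG promoters gave 0.872 upstream and 0.662 downstream in ES cells and 0.757 upstream and 0.508 downstream in standard sperm, so lower standard sperm coverage beyond the window was not particular to the members. In ES cells the bin with the most signal lay upstream of the start site at 357 members and downstream at 208. Tied bins were counted at the most upstream of them, which leans this split upstream. The pooled ES cell ratio was 0.923 for the 200 bp upstream and 0.832 for the 200 bp downstream. Both sides of the start site reached 0.60 of the flank at 194 members, only the upstream side at 202 and only the downstream side at 169.

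**Figure D2:**
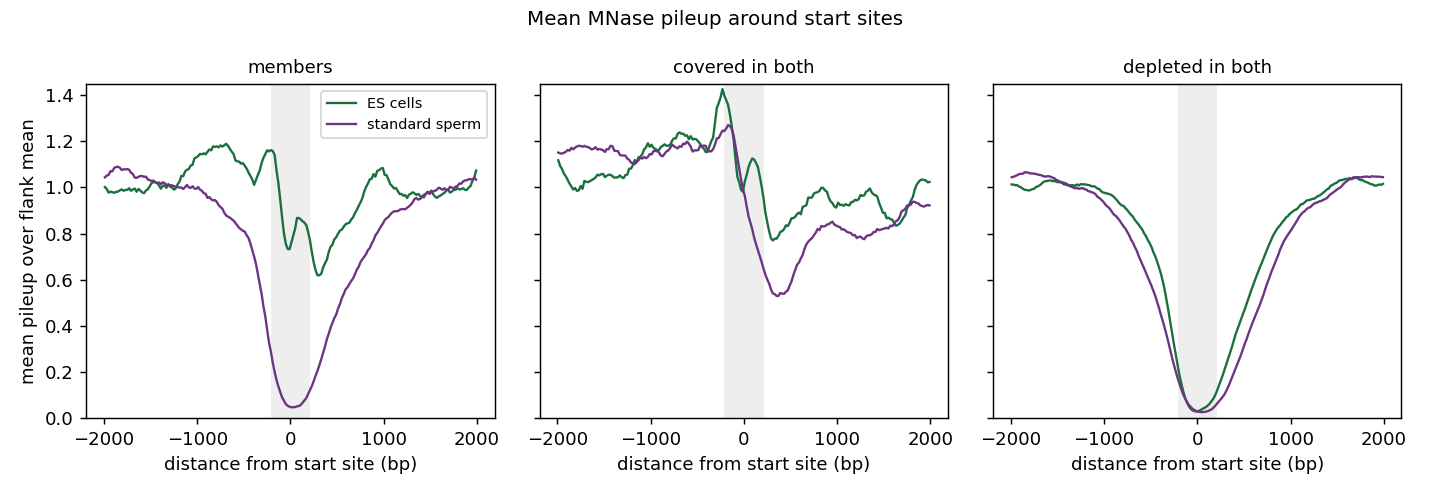
Mean MNase pileup in 20 bp bins, divided by the flank mean, against distance from the start site, for the 565 members, the 544 promoters covered in both libraries and the 3369 depleted in both, with the 200 bp window shaded. Within the shaded window, members dip to 0.732 in ES cells (green) and to 0.0472 in standard sperm (purple).

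The largest ES cell signals belonged to genes of unlike function. Cdc123, an assembly factor of the translation initiation factor eIF2, and Nudt5, a hydrolase of ADP-sugars, start 73 bp apart on opposite strands of chromosome 2 (mm9 positions 5766006 and 5766079). Cdc123 had 22.6 fragment equivalents at the start site in ES cells and 0.909 in standard sperm, with a ratio of 2.27 in ES cells (1.34 to 3.84) and 0.108 in standard sperm (0.00294 to 0.701). Nudt5, which shares most of that DNA, had 20.6 fragment equivalents in ES cells and 0.591 in standard sperm. In the unspun series the Cdc123 start site had a pileup of 38, 0, 17 and 0 from the lowest to the highest dose. It had 1 count in the 20-unit supernatant and none in the other supernatants or in any pellet. Signal at this start site was thus scattered over 3 of the 12 titration libraries, too few fragments for a ratio.

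Tssk2, a kinase made in the testis during spermatid development, had 14.8 fragment equivalents in ES cells and 0.5 in standard sperm. Its start-site ratios were 2.51 in ES cells, interval 1.25 to 4.79, and 0.0998 in standard sperm, interval 0 to 0.795, at chromosome 16 position 17898729 of mm9. The intervals did not overlap. In the titration it had a pileup of 21 in the 2-unit unspun library, 1 count in the 20-unit and 2 counts in the 100-unit supernatant, and 0 elsewhere. Klhl42, a kelch adaptor of a cullin ubiquitin ligase, had 15.5 fragment equivalents in ES cells and 0 in standard sperm, where its flanks held only 14.9. Its intervals of 1.10 to 3.87 in ES cells and 0 to 1.39 in standard sperm overlapped.

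The other 8 of the first 12 members had ES cell ratios of 0.836 to 1.80 and standard sperm ratios of 0.0532 to 0.2. They were Zwilch, part of a kinetochore checkpoint complex; Prom1, the membrane protein known as CD133; Krt4, an epithelial keratin; Pecr, a peroxisomal enoyl-CoA reductase; Zfp354a, a zinc finger protein; Prxl2a, a peroxiredoxin-like protein; Kcnk4, a mechanosensitive potassium channel; and Nes, the intermediate filament nestin of neural progenitors. Zfp354a was the only one of these 8 whose ES cell interval (0.879 to 3.49) lay above its standard sperm interval (0 to 0.654). Some members with no standard sperm signal also had deep flanks. Jam2, a junctional adhesion molecule, had 0 at the start site and 52 fragment equivalents in its flanks in standard sperm, which bounds its ratio at 0.368, against an ES cell ratio of 0.818 (0.403 to 1.62).

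**Figure D3:**
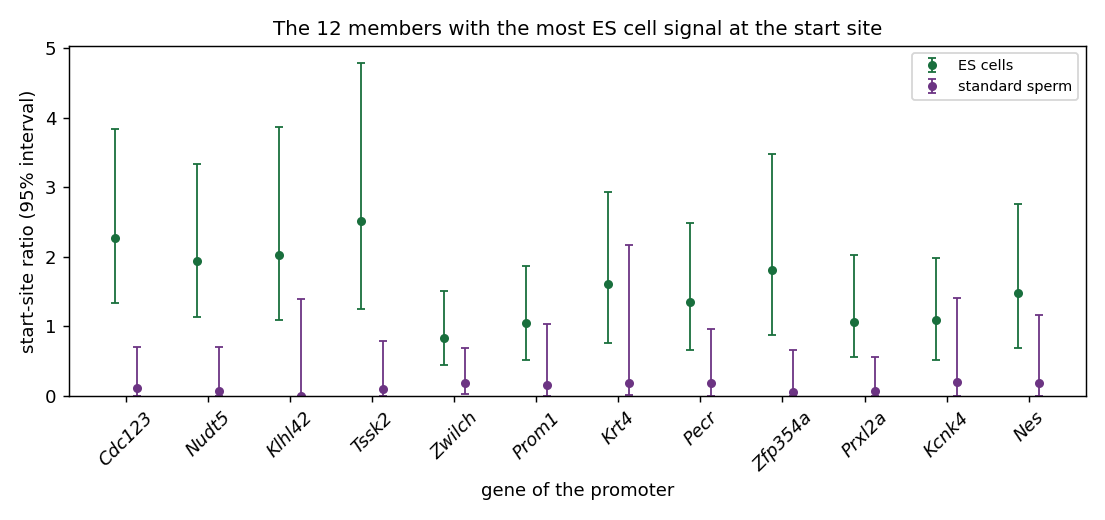
Start-site ratio with its 95% exact binomial interval in ES cells (green) and standard sperm (purple) for the 12 members with the largest ES cell signal at the start site. Intervals are separate for Cdc123, Nudt5, Tssk2 and Zfp354a and overlap for the other 8.

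The 12 titration libraries were not used to choose the promoters. The pooled ratio of the 565 promoters was 0.767, 1.09, 1.19 and 1.79 in unspun sperm at 0.5, 2, 10 and 50 units. It was 1.06, 0.990, 1.03 and 1.62 in the supernatants and 0.6, 1.28, 1.67 and 1.89 in the pellets at 1, 5, 20 and 100 units. Start sites were below their flanks in unspun sperm at 0.5 units (95% interval 0.603 to 0.976), and the intervals of the 3 top doses lay above 1. None of the 12 values was as low as the 0.20 that chose the members in standard sperm, so the set is named here by its rule and not as covered in ES cells only. The members' values in ES cells and standard sperm were fixed by the choice, so their distance from the titration is no finding about the members. Other high-CpG promoters, too, had 0.628 to 1.98 in the titration and 0.230 in standard sperm.

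The titration sums were small. They rested on 80.5 to 122.8 fragment equivalents at the 565 start sites in each unspun library, 55.9 to 166.5 in each supernatant and 13.1 to 157.0 in each pellet, with intervals such as 0.305 to 1.05 for the 1-unit pellet and 1.57 to 2.28 for the 100-unit pellet. At 512 of 565 members (90.6%) at least some titration signal lay on the start site, against 88.7% of all promoters, and 53 had none. At least 1 whole fragment in the unspun series lay on 182 members (32.2%), against 27.8% of all promoters. Both shares were near those of all promoters. The sources used here do not give the number of sperm per titration digest, so dose and library cannot be told apart between them.

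**Figure D4:**
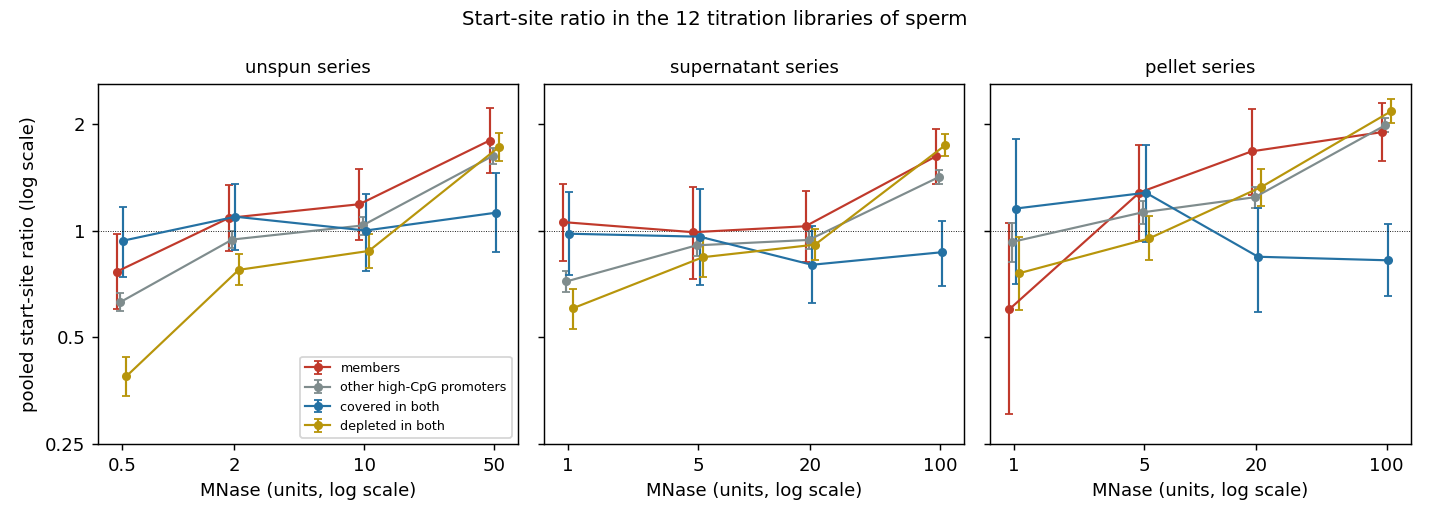
Pooled start-site ratio (log axis) against MNase units (log axis) in the unspun, supernatant and pellet series for members, other high-CpG promoters, promoters covered in both and promoters depleted in both, with 95% exact binomial intervals. Members rise to between 1.62 and 1.89 at the top doses and promoters covered in both stay between 0.825 and 1.12 there.

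The members' ratio rose with dose. One slope shared by the 3 series was 0.17 log2 units per doubling of MNase (exact permutation test, two-sided, p = 0.000579, adjusted p = 0.00231 over 8 tests). With flanks of 500 to 1000 bp it was 0.094 (exact permutation p = 0.00825). From the lowest to the highest dose the ratio changed 2.34-fold in unspun sperm, 1.53-fold in supernatants and 3.16-fold in pellets. A rise with dose was not particular to the members. The slope of the other 9697 high-CpG promoters differed from theirs by 0.0062 (exact permutation p = 0.887, adjusted p = 0.887). P-values here measure how steady a difference is over doses and series, not over animals or digests.

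Promoters covered in both libraries, with ratios of 0.60 or more in ES cells and in standard sperm, resemble the members in ES cells but not in standard sperm. The members' slope exceeded theirs by 0.20 log2 units per doubling (exact permutation p = 0.000217, adjusted p = 0.00174), a comparison added after the values were seen. It was 0.11 when the count tables were read at the 20 bp of their header (exact permutation p = 0.000362). In unspun sperm, supernatants and pellets, the slopes of promoters covered in both were 0.029, -0.035 and -0.092. Those of other high-CpG promoters were 0.19, 0.14 and 0.16, and those of promoters depleted in both 0.30, 0.22 and 0.23. A slope above that of promoters covered in both was thus not particular to the members. At the top doses the members had 1.79, 1.62 and 1.89 in unspun, supernatant and pellet, and the promoters covered in both had 1.12, 0.869 and 0.825. Averaged over the 12 libraries the members' level was higher by 0.27 log2 units (SD 0.60, higher in 9 of 12, exact permutation p = 0.135, adjusted p = 0.180). Without the 1-unit pellet that difference was 0.38 (exact permutation p = 0.0254). That was the lowest exact permutation p of the 12 omissions, which ran up to 0.266.

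Promoters depleted in both libraries, with ratios of 0.20 or less in each, resemble the members in standard sperm but not in ES cells. At the lowest unspun dose, 0.5 units, the members had 0.767 and these promoters 0.389, and at 50 units they had 1.79 and 1.72. The order was reversed in the 100-unit supernatant, with 1.62 in members and 1.74 in promoters depleted in both. It was also reversed in the pellets at 1 unit (0.6 and 0.758) and at 100 units (1.89 and 2.17). Over the 12 libraries the members were higher by 0.28 log2 units (SD 0.39, higher in 9 of 12, exact permutation p = 0.0332), which did not pass after adjustment over 8 tests (adjusted p = 0.0885). Leaving out any of 6 libraries gave an exact permutation p of 0.0547 to 0.0664 before adjustment. The slope differed by -0.08 log2 units per doubling, members less steep (exact permutation p = 0.0724, adjusted p = 0.145). Without the 1-unit pellet, the library with the fewest fragments, that difference was -0.13 (exact permutation p = 0.000289). That was the lowest exact permutation p of the 12 omissions, which ran up to 0.220.

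Against all other high-CpG promoters the members were higher by 0.15 log2 units over the 12 libraries (SD 0.29, higher in 10 of 12, exact permutation p = 0.112, adjusted p = 0.179). Without the 1-unit pellet the difference was 0.22 (exact permutation p = 0.00195). That was the lowest exact permutation p of the 12 omissions, which ran up to 0.220. Between supernatant and pellet of the same dose the members differed by -0.12 log2 units, supernatant minus pellet (SD 0.66, higher in 1 of 4, exact permutation p = 0.75, in a design of 4 doses that cannot reach 0.05).

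The promoters with the most titration signal were other genes than those with the most ES cell signal. C1ql4, a secreted C1q-like protein of synapses, led with 9.58 fragment equivalents over the 12 libraries. It had a pileup of 0, 9, 2 and 31 in unspun sperm at rising dose, 0, 0, 3 and 3 counts in the supernatants and 0, 0, 12 and 3 counts in the pellets, beside 240 in ES cells and 0 in standard sperm. Psma5, an alpha subunit of the proteasome core, had a pileup of 22, 0, 1 and 17 in unspun sperm, 0, 6, 0 and 0 counts in the supernatants and 0, 4, 1 and 3 counts in the pellets. Its ES cell pileup was 117 and its standard sperm pileup 31. C1ql4 signal was largest in the 50-unit unspun and 20-unit pellet libraries, and Psma5 signal was spread over low and high doses. Dok5, a docking adaptor of receptor kinases, Nsrp1, a nuclear speckle splicing regulator, Hdhd3, Syt12, a synaptotagmin, Prrxl1, a homeodomain factor of sensory neurons, and Inpp1, an inositol phosphatase, followed at 6.94 to 9.03 fragment equivalents.

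By function, 98 of the 565 promoters belonged to the 19 gene lists looked at, and 467 to none of them. Every list is given as a count against the 5.51% of all promoters, with no test. Proteasome subunits, which build the particle that degrades tagged proteins, held 5 members among 41 promoters (12.2%), with list medians of 0.412 in ES cells and 0.235 in standard sperm. Psmb6, a core beta subunit, had a ratio of 1.97 in ES cells and 0.109 in standard sperm, and Psmd9, Psmd14, Psmc5 and Psma5 had 0.742 to 0.898 in ES cells and 0 to 0.168 in standard sperm. Genes of DNA repair and replication held 8 among 86 (9.30%), with medians of 0.343 in ES cells and 0.198 in standard sperm. Ercc1, a subunit of a repair endonuclease, had 1.29 in ES cells and 0.163 in standard sperm. Neil2, a DNA glycosylase, had 1.23 in ES cells and 0.0468 in standard sperm. Ercc6, Pola2, Fancb, Fancm, Rad52 and Pold3 were the other 6. Solute carriers, the transporters of small molecules, held 16 among 208 (7.69%), among them Slc43a1 with 1.37 in ES cells and 0 in standard sperm.

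Developmental transcription factors held 12 members among 171 promoters (7.02%) and had 24 promoters covered in both. Their medians were 0.356 in ES cells and 0.206 in standard sperm. Hoxd11, a patterning gene of limb and trunk, had 2.51 in ES cells and 0.151 in standard sperm, and Hoxa3 had 1.32 in ES cells and 0.115 in standard sperm. Pax3, a regulator of neural crest and muscle precursors, had 1.3 in ES cells and 0.120 in standard sperm. Alx1, Foxn4, Pax8, Pax7, Foxr1, Neurog3, Pdx1 and Vax1 were also members, with ES cell ratios of 0.622 to 0.979. Secreted developmental ligands held 2 among 52 (3.85%), Wnt11 and Wnt2. Pluripotency genes held 1 among 20 (5.00%), Klf2, a factor of the naive ES cell state, with 0.741 in ES cells and 0 in standard sperm.

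Counts for genes of the germ line stayed near the share of all promoters. Spermatid and sperm structure genes held 2 among 30 (6.67%), Tssk2 and Tekt1, a tektin of the flagellum, whose ratio was 1.47 in ES cells and 0.185 in standard sperm. Meiotic and early germ cell genes held 3 among 42 (7.14%). They were Rec8, a meiotic cohesin, with 0.795 in ES cells and 0.0905 in standard sperm, Tex101, and Tex19.1, with 0.635 in ES cells and 0 in standard sperm. The median ES cell ratios of these lists, 0.346 and 0.294, stood above the 0.231 of all promoters. Their standard sperm medians, 0.0937 and 0.0895, stood below the 0.160 of all promoters. The pattern was not particular to them, since secreted developmental ligands had medians of 0.296 in ES cells and 0.123 in standard sperm.

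Cytoplasmic ribosomal proteins held 5 among 73 (6.85%), Rplp2 leading with 1.07 in ES cells and 0.142 in standard sperm. Mitochondrial ribosome and respiratory chain genes held 8 among 154 (5.19%), led by Mrpl52 with 1.33 in ES cells and 0.198 in standard sperm. Zinc finger proteins held 13 among 217 (5.99%), clustered protocadherins 3 among 43 (6.98%), heat shock and chaperone genes 3 among 58 (5.17%), splicing and RNA decay factors 4 among 85 (4.71%) and ion channels and neurotransmitter receptors 6 among 139 (4.32%). The protocadherin list, of cell-surface proteins by which neurons tell themselves apart, differed in its medians, 0.754 in ES cells and 0.495 in standard sperm, and had 13 promoters covered in both. The lowest shares were 1 among 28 imprinted genes (3.57%), Zim1, 5 among 180 ubiquitin ligase and conjugating enzymes (2.78%) and 1 among 85 Ras-family GTPases (1.18%), Rab39. No high-CpG promoter matched the list of replication-dependent histone genes.

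**Figure D5:**
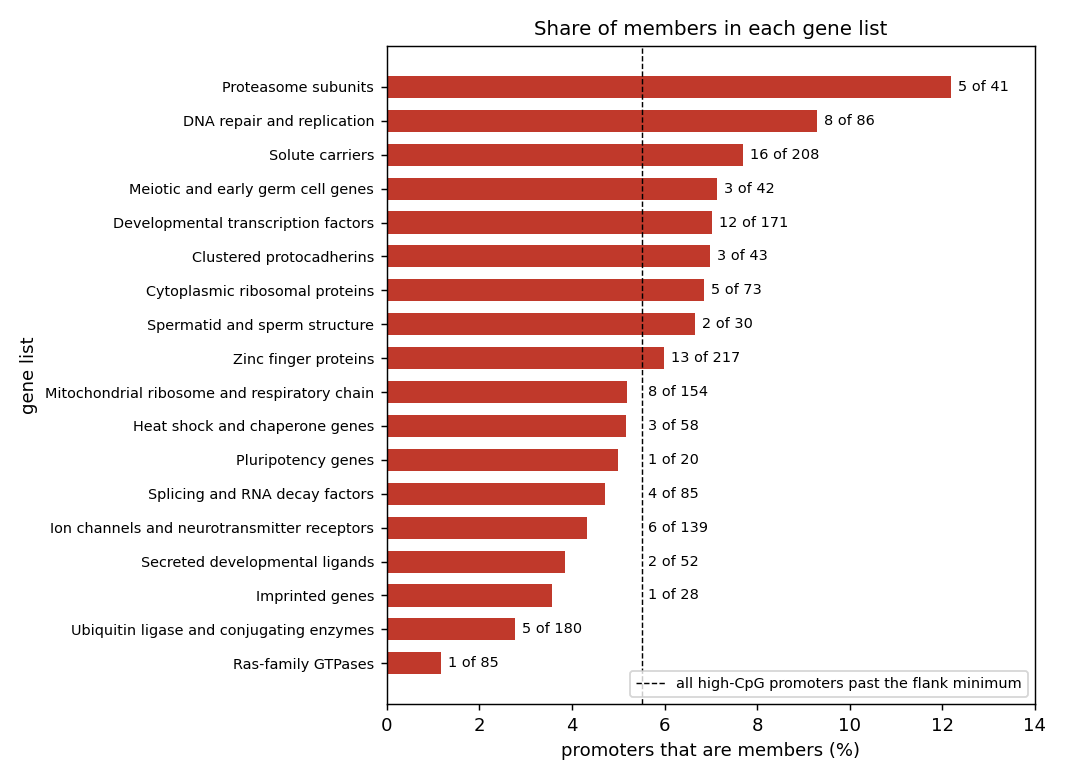
Share of each list's promoters past the flank minimum that are members (bars, with member and promoter counts), beside the 5.51% of all high-CpG promoters (dashed line). Proteasome subunits stand highest at 12.2% and Ras-family GTPases lowest at 1.18%.

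By position, members made up 3.27% of the judged promoters of chromosome 13, the lowest share, and 8.66% of those of chromosome X, 24 of 277, the highest. Members on X had thin flanks, 514 fragment equivalents over 24 promoters in ES cells against 20079 over 541 on autosomes. Whether depth bears on the share was not tested. Another gene started within 1000 bp at 66 members (11.7%), against 15.2% of all promoters. Of the 8 pairs of members that share windows, Pecr and Tmem169 had ES cell ratios of 1.35 and 1.24, and 1700088E04Rik and Polr2f, 115 bp apart, had 1.56 and 0.612. The other pairs were Spata17 with Gpatch2, Gnptg with Tsr3, Cebpz with Ndufaf7, Exosc1 with Zdhhc16, Cdc26 with Prpf4, and Cdc123 with Nudt5. Overlapping windows thus gave unlike ratios for 1700088E04Rik and Polr2f. The 118 members with no standard sperm signal at the start site had pooled titration ratios of 0.533 to 2.07, and the 447 with some had 0.622 to 1.94, a split made on a value the choice used and not tested.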

How the data were processed

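Of 17 samples, 14 were analysed and 3 were not analysed here (the ES cell digest without a spin, the sperm input DNA and the H3 ChIP of sperm). The submitters' processing notes name Bowtie, SAMtools 0.1.16 and the mm9 build. The authors deposited, for ES cells, standard sperm and unspun sperm, a pileup signal of 135 to 165 bp fragments in 20 bp bins, not scaled to depth. For supernatants and pellets the authors deposited raw counts per bin with promoter classes. Bins were taken as 50 bp, not the 20 bp of the header, because isolated fragments at 5 units and more span about 3 bins. The description of the 5-unit and 20-unit pellets gives other units than their titles, which were followed. Around start sites the ES cell library held 2019584 fragment equivalents, standard sperm 1447861, and the titration libraries 13863 to 82667. An isolated fragment adds 22 to a pileup and 2.74 counts. In the 1-unit count libraries 82.8% and 82.0% of isolated runs covered 1 or 2 bins, against 4.32% to 8.09% at higher doses, so their fragment equivalents are too low.

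Ratios were summed over promoters, logged and compared over the 12 titration libraries by sign flips, or by all 13824 orderings of doses within series for slopes, two-sided and exact. Benjamini-Hochberg adjustment ran over 8 tests, of which the slope differences against promoters covered in both and depleted in both were added after the values were seen. Intervals are 95% exact binomial on fragment equivalents, rounded to whole fragments, and cover counting error only, since reads carry no molecular identifiers. No source used here says whether supernatant and pellet of a dose share a digest. Recovery of a set difference and a set slope, not the p-values, was checked on simulated libraries.

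Members and lists were chosen with earlier results of these data known. Genes were named as the 12 members with the most ES cell signal, those lowest and highest in standard sperm, those beside each limit, those in a list, the 8 with the most titration signal, and pairs that share windows. RefSeq symbols came from a GRCm38.p6 table used for names, which named 553 of 565 members. Python 3.11.15, numpy 2.4.6, pandas 2.3.3, scipy 1.17.1 and matplotlib 3.10.9 were used. Of the genes this rule names, 2 are not reported here.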

Additional observations from a re-analysis of the deposited data

How the results depend on the processing

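The number of members was 303 with flanks of 500 to 1000 bp (the nearer flanks), whose sum had to pass the same minimum over a narrower stretch, 983 with limits of 0.50 and 0.25, and 315 with limits of 0.70 and 0.15. Of the members as reported, 364 were among the 570 found with a centre of 100 bp and 170 among the 303. The dose slope of the members kept its direction in all alternatives run. It was 0.094 with the nearer flanks and 0.13 to 0.20 with each library left out. In the supernatant series alone it was 0.087 and in the pellet series alone 0.24. Orderings of doses within 1 of these series cannot give an exact permutation p below 0.0833, so no call was possible there. The slope difference against promoters covered in both was 0.11 with 20 bp count bins, and 0.15 to 0.23 with each library left out. It was 0.12 in the supernatant and 0.34 in the pellet series alone. The same floor held for these series, and the pellet series was at it (exact permutation p = 0.0833).

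The level against other high-CpG promoters passed an unadjusted 0.05 at 0.19 with a centre of 100 bp, 0.13 with 300 bp, 0.15 with 20 bp count bins, 0.17 with limits of 0.50 and 0.25, 0.17 without the lowest doses and 0.18 without the 1-unit count libraries, a setting chosen after seeing the data. It was -0.020 in the pellet series alone, and 0.11 to 0.22 with each library left out. Against promoters covered in both it passed at 0.31 with a centre of 300 bp, 0.43 with flank sums of 440, 0.49 without the lowest doses and 0.41 without the 1-unit count libraries, and was 0.19 to 0.38 with each library left out. Against promoters depleted in both it was 0.49 in the unspun, 0.28 in the supernatant and 0.058 in the pellet series alone. Sign flips over the 4 libraries of a series cannot reach 0.05, so no call was possible there. With each library left out it was 0.21 to 0.33, and 6 of the 12 omissions lost the unadjusted call.

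The slope difference against other high-CpG promoters changed sign to -0.037 with a centre of 100 bp, -0.0065 with 300 bp, -0.021 with the nearer flanks, -0.023 with 20 bp count bins, -0.0050 with limits of 0.50 and 0.25, -0.0011 with flank sums of 440, -0.019 without the lowest doses, -0.019 in the unspun and -0.050 in the supernatant series alone, and -0.021 without the 1-unit count libraries, and was -0.039 to 0.031 with each library left out. The slope difference against promoters depleted in both passed at -0.13 with a centre of 100 bp, -0.086 with 300 bp, -0.099 with the nearer flanks, -0.10 with 20 bp count bins, -0.086 with shared windows counted once, -0.071 with limits of 0.50 and 0.25, -0.11 without the lowest doses and -0.12 without the 1-unit count libraries. It was 0.015 in the pellet series alone and -0.13 to -0.060 with each library left out. Supernatant minus pellet was 0.047 with the nearer flanks and -0.43 to 0.073 with each library left out. The cause was not tested. No paired analysis was possible because every group holds 1 library, so replicate numbers pair no samples; comparisons within a library and at matched doses are those of the report. Depth limits single promoters, since a member held a median of 1.73 fragment equivalents over all 12 titration libraries.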
